A study of Mus musculus with 6 samples.

Results

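The hypoxia-induced miRNA miR-210-3p was followed through the 6 libraries of this study. It was chosen by its accession, as the 1 row of the deposited count table that carries the miRBase mature accession MIMAT0000658, out of 707 mature miRNAs. The files list accessions only and pair none of them with a name, so that the counts of every other miRNA are given by accession at most. The libraries came from white adipose tissue (WAT) of male ApoE-deficient mice, with 3 control libraries and 3 CIH libraries. Both groups lack apolipoprotein E, a protein of lipoprotein particles that liver receptors bind, and a wild-type group is not analysed here. Chronic intermittent hypoxia (CIH), a model of obstructive sleep apnea, lasted 8 weeks. Its cycles had a falling and a rising phase of 60 s each, between 21% oxygen and a low point near 6%. The gas conditions of the control mice, the fat depot and the age of the animals are not given in the sources used here. Because names are not paired with the counts, marker miRNAs of adipose tissue and of other cell types were not examined.

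miR-210 is among the miRNAs most closely tied to hypoxia. The transcription factor HIF-1, whose alpha subunit is stabilised when oxygen is low, binds the promoter of its gene, and many cell types raise miR-210 when oxygen falls. Its known targets include the iron-sulfur cluster scaffold Iscu, through which it lowers mitochondrial respiration, the receptor ligand Efna3, which acts in blood vessel growth, and Gpd1l. Whether its level in WAT differed between mice under CIH and control mice was the comparison of interest.

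The mature sequence and its hairpin are shown as a reference for miR-210-3p. Which reads were counted as miR-210-3p also depended on processing choices that are not given in the sources used here. The sequences are those of RefSeq on the mouse build GRCm38, and they were matched by the miRNA's name. In the mature sequences the capitals mark the seed, bases 2 to 8, which pairs with target mRNAs. In the hairpin, written 5′ to 3′, the capitals mark the 5p arm and then the 3p arm.
mmu-miR-210-3p: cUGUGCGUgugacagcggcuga
mmu-miR-210-5p: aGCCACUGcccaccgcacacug
Mir210 hairpin: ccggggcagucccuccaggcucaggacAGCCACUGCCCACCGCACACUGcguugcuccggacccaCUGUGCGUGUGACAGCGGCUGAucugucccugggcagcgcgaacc

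The hairpin of 110 bases lies on the minus strand of chromosome 7, at chr7:141221384-141221493, and the 22 bases of miR-210-3p lie at chr7:141221407-141221428. In GENCODE release M21 no gene other than Mir210 overlaps the hairpin, so that it lies in neither an exon nor an intron of an annotated host gene. The nearest annotated genes are Rassf7, whose end lies 2726 bases away at lower coordinates, and Phrf1, whose start lies 7291 bases away at higher coordinates. GENCODE has 0 further miRNA genes within 10 kb of it. The mature sequence is encoded at 1 locus.

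Reads of miR-210-3p have few places in the known mouse miRNAs to be confused with. Among the 1679 mature names of the RefSeq table, 0 others shared its seed, and 0 others shared even bases 2 to 7. The closest other mature sequence was 7 edits away, counting substitutions, insertions and deletions. Of 1004 other hairpins, 0 held any run of 15 bases of miR-210-3p. Its GC content was 63.6%, and 82.4% of the mature sequences had a lower one. In the count table, 0 other miRNAs had the same counts in all 6 libraries.

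The 6 libraries held between 636963 and 4783768 miRNA counts, and counts were not normalized in the deposited table. TMM factors, which correct the totals for differences in composition, lay between 0.575 in control 1 and 1.45 in CIH 3. The libraries did not separate by group. Over the 633 miRNAs tested, log2 levels in control 3 correlated with the 3 CIH libraries at 0.958 to 0.974, but with control 1 and control 2 at 0.595 and 0.661, while control 1 and control 2 correlated with each other at 0.831. The points of these correlations are miRNAs and not replicates. Because control 1, control 2 and control 3 stood so far apart, results for miR-210-3p are given with and without them.

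miR-210-3p was detected in all 6 libraries, at a level that spanned more than an order of magnitude among the control libraries and much less among the CIH libraries. The deposited counts of miR-210-3p were 7, 203 and 138 in control libraries 1, 2 and 3. They were 224, 158 and 76 in CIH libraries 1, 2 and 3. Control 1 thus had by far the fewest reads of miR-210-3p, although its total of 1365868 counts exceeded those of control 3, CIH 2 and CIH 3. It also had the lowest TMM factor, 0.575, and the fewest detected miRNAs, 487 against 552 to 649 in the other libraries. Whether these traits of the library bear on its low count of miR-210-3p was not tested.

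Scaled by the library total, the level is given as CPM, counts per 1000000 counts of the library. miR-210-3p had 5.12 CPM in control 1, with a 95% exact Clopper-Pearson interval of 2.06 to 10.6. Control 2 had 42.4 CPM (36.8 to 48.7) and control 3 had 174.1 CPM (146.2 to 205.6). The 3 intervals did not overlap, so the control libraries differed from each other by more than counting error. CIH 1 had 142.0 CPM (124.0 to 161.8), CIH 2 had 214.2 CPM (182.1 to 250.4) and CIH 3 had 119.3 CPM (94.0 to 149.3). The interval of control 3 overlapped those of CIH 1, CIH 2 and CIH 3, whereas those of control 1 and control 2 lay below all of them. These intervals cover counting error only, and reads without molecular identifiers are not independent molecules. In a bulk tissue, a change in the number of cells of a type and a change in the RNA of each cell cannot be told apart.

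After TMM normalization, the levels were 8.91, 49.0 and 124.4 CPM in control 1, 2 and 3, and 179.9, 170.7 and 82.4 CPM in CIH 1, 2 and 3. The order from the lowest to the highest was control 1, control 2, CIH 3, control 3, CIH 2 and CIH 1. The groups overlapped, since control 3 lay above CIH 3. The scaling changed this order: by library total, control 3 lay above both CIH 1 and CIH 3. The control mean was 60.8 ± 58.6 TMM-normalized CPM (SD, n = 3), against 144.3 ± 53.8 (SD, n = 3) under CIH. Coefficients of variation were 96.5% for the control libraries and 37.3% for the CIH libraries, and the highest library exceeded the lowest 14.0-fold among the former and 2.18-fold among the latter.

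**Figure D1:**
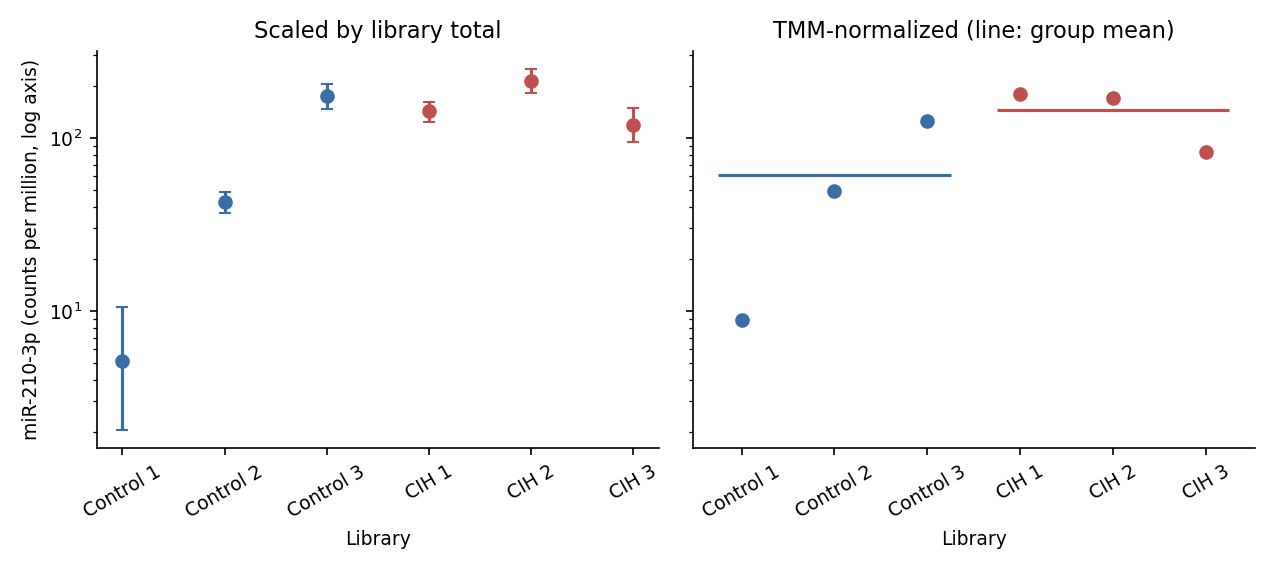
Level of miR-210-3p in each library, in CPM on a log axis, scaled by the library total (left, bars are 95% Clopper-Pearson intervals) and after TMM normalization (right, lines are group means). Control 1 and control 2 lie below every CIH library in both panels, and control 3 lies among the CIH libraries.

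The unequal spread was shared with many other miRNAs. Over the 395 miRNAs whose mean reached 10 TMM-normalized CPM, the coefficient had a median of 84.2% among the control libraries and 27.6% among the CIH libraries. Of these, 59.7% had a lower control-group value than miR-210-3p, and 69.4% had a lower CIH-group value. miR-210-3p was therefore somewhat more variable than the median miRNA in both groups.

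The rank of miR-210-3p within a library does not depend on a scaling factor. Ranked by counts, miR-210-3p was number 328 in control 1, where 9 other miRNAs had the same count. It was number 193 in control 2 and number 172 in control 3. It was number 153 in CIH 1, number 158 in CIH 2 and number 199 in CIH 3. Control 1 stood alone at the low end, and the other 5 libraries placed miR-210-3p between 153 and 199, with control 2 and control 3 both ahead of CIH 3.

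The place of miR-210-3p among the miRNAs that each library detected was also moderate. In the CIH libraries, 69.2% to 75.9% of the detected miRNAs had fewer counts than miR-210-3p. The share was 73.0% in control 3, 64.9% in control 2 and 30.8% in control 1. The most abundant miRNA of the same library had 1166 to 2457 times as many counts in the CIH libraries, 1189 times as many in control 3, 5517 times as many in control 2 and 62680 times as many in control 1. miR-210-3p was thus a miRNA of middle abundance in the CIH libraries and in control 3, at 0.0119% to 0.0214% of all counts, and a minor one in control 1, at 0.000512%.

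**Figure D2:**
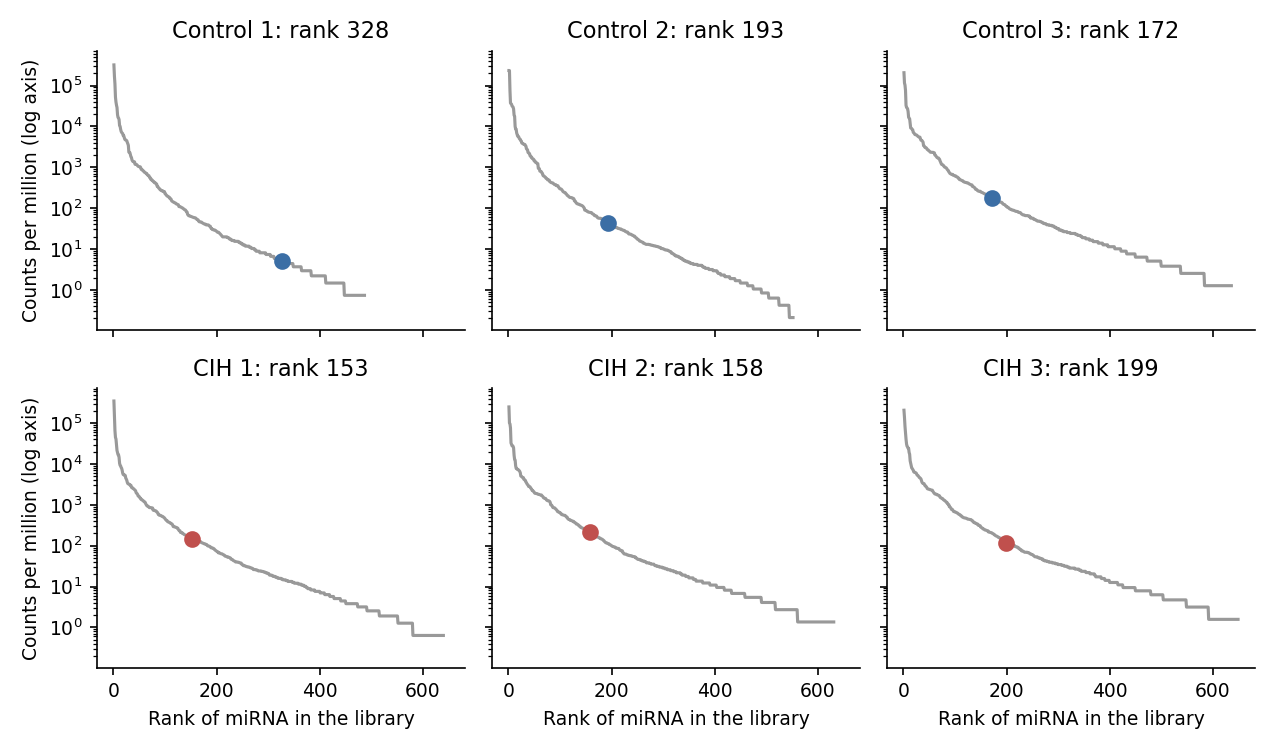
Level in CPM of all detected miRNAs in each library, on a log axis, against their rank, with miR-210-3p as the filled point. miR-210-3p lies between rank 153 and rank 199 in 5 libraries and at rank 328 in control 1.

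The groups were compared with edgeR's quasi-likelihood test over the 633 miRNAs that reached 10 counts in all. The estimate for miR-210-3p was higher in the CIH group, and the difference did not pass the test. Its log2 fold change was estimated at 1.25 with a standard error of 0.95, and the Benjamini-Hochberg adjusted p-value of the edgeR test was 0.882. The unadjusted p-value of the same edgeR test was 0.233. As a fold, the estimate was 2.37, with a 95% interval from 0.491 to 11.4, so that a lower level under CIH and an increase of up to 11.4-fold were both within the interval.

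Read against all miRNAs tested, miR-210-3p did not stand out. The background of calls was 0% at an adjusted p-value under 0.05 (0 of 633 miRNAs by edgeR). It was 2.53% (16 of 633) by the looser rule of an unadjusted p-value under 0.05 with at least a 1.5-fold change, and 0.474% (3 of 633) by that rule with a higher level in the CIH group. Adjusted calls were also 0 with DESeq2, edgeR's exact test, limma voom and the ordinary linear model, which gave 26, 29, 75 and 23 miRNAs at an unadjusted p-value under 0.05. A total of 154 miRNAs (24.3%) had a p-value as small as that of miR-210-3p or smaller. The log2 fold change was higher than that of miR-210-3p for 90 miRNAs (14.2%), and 226 (35.7%) had an estimate at least 1.5-fold higher in the CIH group. The groups did not overlap, with the CIH libraries higher, for 32 miRNAs (5.06%), and miR-210-3p was not one of them. Over all 633 miRNAs, log2 fold changes had a median of 0.07.

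**Figure D3:**
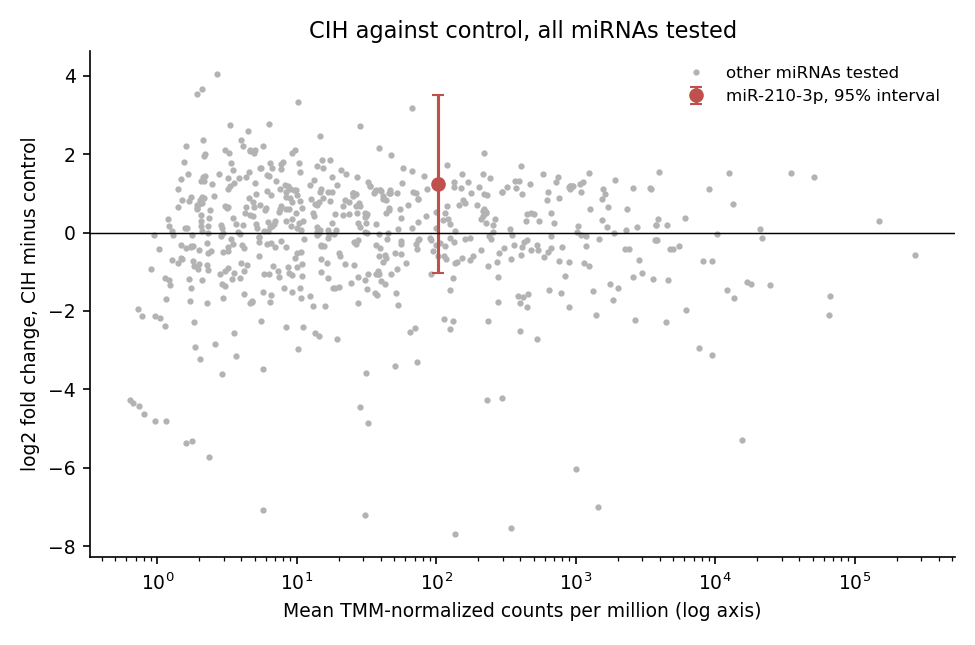
Log2 fold change, CIH minus control, against the mean TMM-normalized CPM on a log axis, for the 633 miRNAs tested. miR-210-3p is drawn with its 95% interval, which runs from -1.03 to 3.52 and includes 0.

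Single values of miR-210-3p were also compared by two-sided exact permutation tests over the 6 libraries, which cannot give a p-value under 0.1. On the log2 scale of TMM-normalized CPM (prior count 2), the control mean was 5.33 ± 1.83 (SD, n = 3) and the CIH mean was 7.11 ± 0.62 (SD, n = 3). The difference was 1.78 (exact permutation p = 0.2). Scaled by library totals the difference was 2.09 (exact permutation p = 0.3). The mean rank was 231 ± 84.7 (SD, n = 3) for the control libraries and 170 ± 25.2 (SD, n = 3) for the CIH libraries, where a smaller rank means a higher level (exact permutation p = 0.3). With Benjamini-Hochberg adjustment over the 4 measures compared, every one of these exact permutation tests gave 0.3.

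The fourth measure set miR-210-3p against other miRNAs of the same library. The reference was the geometric mean of the 238 miRNAs that reached 10 counts in each library. They were chosen by count and not for a stable level. On the log2 scale, the ratio of miR-210-3p to this mean was -4.92 in control 1, -2.48 in control 2 and -0.80 in control 3. It was -0.69 in CIH 1, -0.46 in CIH 2 and -1.54 in CIH 3. The ratios again overlapped only through control 3 and CIH 3. The difference of the group means was 1.84 (exact permutation p = 0.2, adjusted 0.3).

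The size of the difference turned on which control libraries were used. Without control 3, the log2 fold change of miR-210-3p was 2.27 (standard error 0.85) and its 95% interval ran from 0.18 to 4.35. The unadjusted p-value was 0.0376 and the adjusted one 0.116 by edgeR's quasi-likelihood test. In the same fit 118 of 614 miRNAs (19.2%) passed the adjusted threshold of 0.05, and miR-210-3p was not one of them. By the looser rule, 24.4% of the miRNAs were higher in the CIH group, miR-210-3p among them, and 199 miRNAs had a p-value as small or smaller. The CIH libraries lay above both remaining controls for 32.2% of the miRNAs. A higher level of miR-210-3p without control 3 therefore came with higher levels of a large share of all miRNAs. The log2 fold changes of the 614 miRNAs nonetheless had a median of 0.03, and 146 (23.8%) exceeded that of miR-210-3p.

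Without control 1, by contrast, the log2 fold change of miR-210-3p was 0.79 (standard error 0.67, adjusted p = 0.942 by edgeR's quasi-likelihood test). Without control 2 it was 1.16 (standard error 1.12, adjusted p = 0.968 by the same test), close to the value from all 6 libraries. Without control 1 and control 2 together, which leaves control 3 alone against the CIH group, it was 0.28 (standard error 0.52, adjusted p = 0.967 by the same test). In that fit, the lone control library is assumed to vary like the CIH libraries. The rank difference, -61 with all 6 libraries, was -12.5 without control 1, -80 without control 2 and -90.5 without control 3. The difference in the log2 ratio to the common miRNAs, 1.84 with all 6, was 0.60, 1.95 and 2.81 in the same order. The direction was the same in each of these cases.

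**Figure D4:**
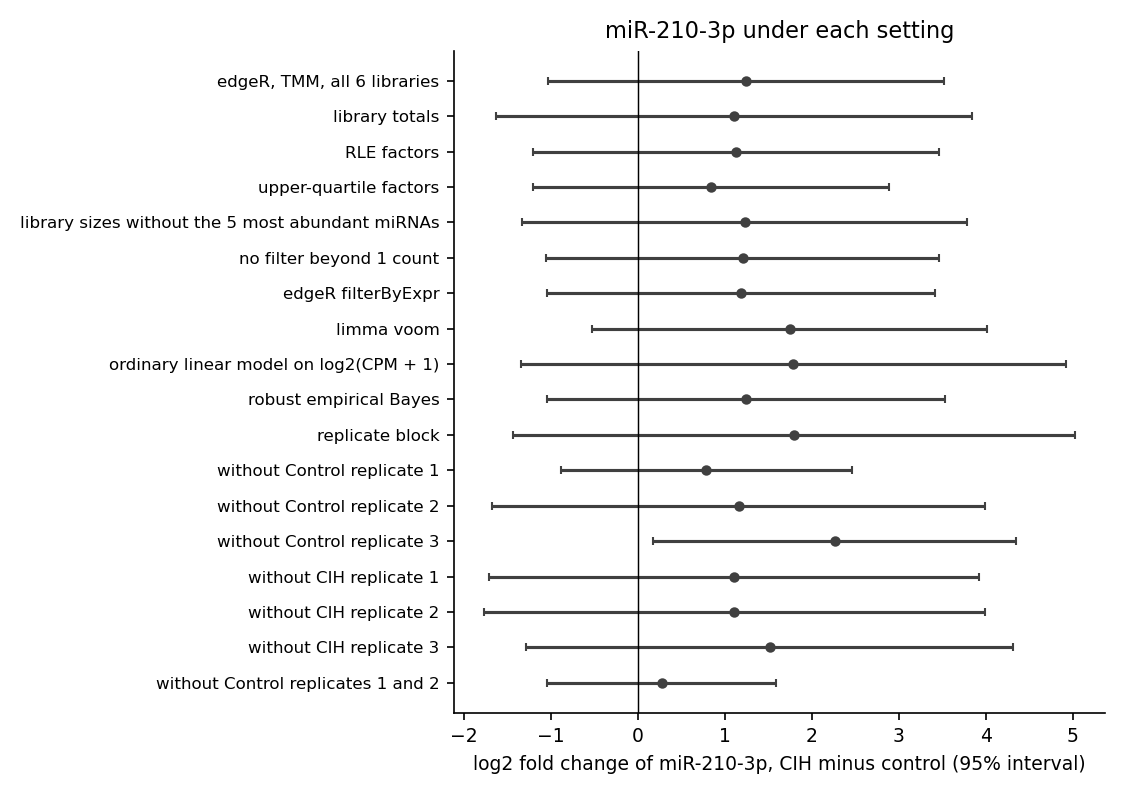
Log2 fold change of miR-210-3p, CIH minus control, with its 95% interval, for each setting that gives an interval. All estimates lie above 0, and the interval excludes 0 only without control 3.

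The 15 pairs of libraries show where the spread of miR-210-3p lay. Within the control group, control 3 exceeded control 1 by 3.62 on the log2 scale, control 2 exceeded control 1 by 2.30 and control 3 exceeded control 2 by 1.32. Within the CIH group, the 3 pairs differed by 0.07 to 1.11. The 9 pairs of 1 control and 1 CIH library differed by 0.45 to 4.15, with a median of 1.77, which is below the median of 2.30 within the control group. Control 3 differed from CIH 1, CIH 2 and CIH 3 by 0.53, 0.45 and 0.59, and it was the lower library in the first pair and in the second pair only.

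These differences were set beside those of the 394 other miRNAs whose mean reached 10 TMM-normalized CPM. From control 1 to control 2, 9.14% of them differed upward by more than miR-210-3p did, and from control 1 to control 3, 19.3% did. From control 1 to CIH 1, CIH 2 and CIH 3, the share was 14.2%, 16.0% and 22.3%. From control 2 to the same libraries it was 31.2%, 28.9% and 40.4%. Depending on the library compared with control 1, 9.14% to 22.3% of the other miRNAs thus had a larger upward difference than miR-210-3p.

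**Figure D5:**
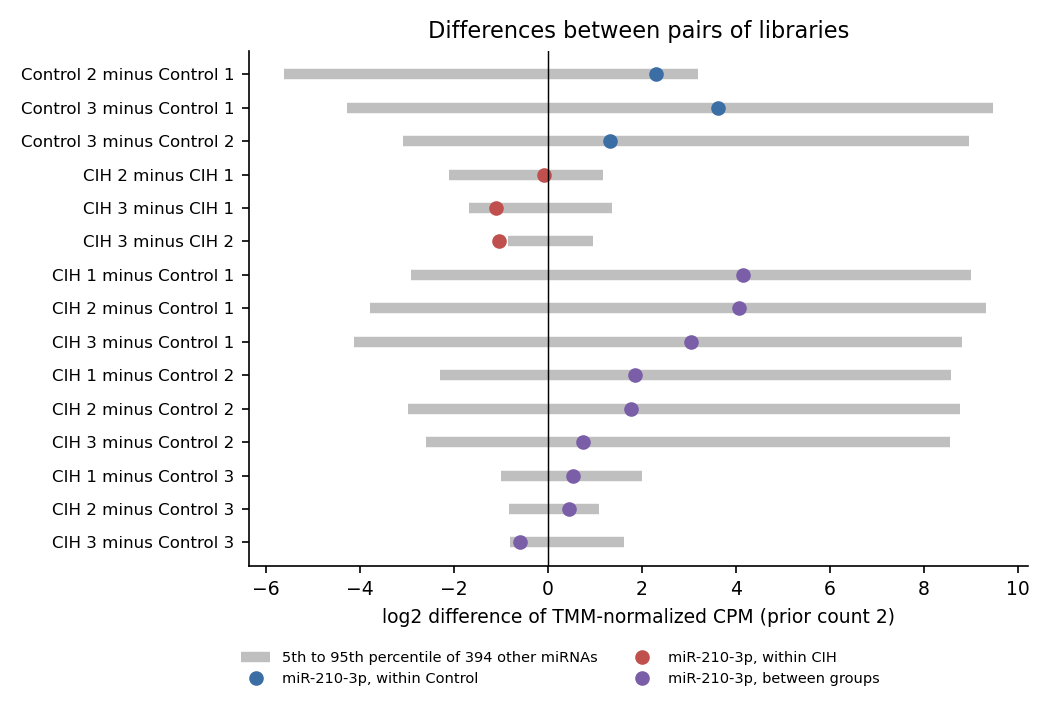
Log2 difference of TMM-normalized CPM (prior count 2) between the 2 libraries of each of the 15 pairs. Points are miR-210-3p, and grey bars span the middle 90% (5th to 95th percentile) of 394 other miRNAs. The pairs with control 1 have the points farthest to the right.

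The miRNAs whose pattern was most like that of miR-210-3p were found by Pearson correlation of log2 TMM-normalized CPM (prior count 2) over the 6 libraries. This was done among the 238 miRNAs that reached 10 counts in each library, a set to which miR-210-3p, with 7 counts in control 1, does not belong. The closest was MIMAT0004651 (r = 0.978), with 497.5, 1505 and 3528 TMM-normalized CPM in control 1, 2 and 3 and 2815, 3311 and 2286 in CIH 1, 2 and 3. The next was MIMAT0001342 (r = 0.969), which ranged only from 24.2 CPM in control 1 to 44.2 CPM in CIH 1. The r of the 5 closest ran from 0.929 to 0.978, and each of the 5 had its lowest level in control 1. Their choice by likeness to miR-210-3p, itself lowest in control 1, favours that trait. Of the 633 miRNAs tested, 175 (27.65%) were lowest in control 1. Over the 238 miRNAs, r had a median of -0.10, and 9 (3.78%) exceeded 0.9. The 6 points of each correlation share their libraries, depth and composition, and without control 1, 0 of the 5 were still among the closest 5.

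The miRNAs next to miR-210-3p in mean level show how much a level near 103 CPM varied in these libraries. miR-210-3p had a mean of 102.6 TMM-normalized CPM over the 6 libraries and was number 203 of those tested. The miRNA just above it, MIMAT0000384, ran from 64.9 to 162.9 CPM, with a log2 fold change of -0.60. The miRNA just below it, MIMAT0000528, ran from 13.3 to 188.3 CPM, with a log2 fold change of 0.12. Among the 3 miRNAs above and the 3 below, the coefficient of variation in the control group ran from 14.3% to 156.0%, and that of miR-210-3p, 96.5%, exceeded all but 1 of them.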

How the data were processed

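miRNA-seq libraries from WAT of the control group (3 libraries) and the CIH group (3 libraries) were analysed, grouped by their labels. The authors deposited 1 table of raw counts of reads per mature miRNA (707 miRNAs), not normalized. Their adapter trimming, aligner, miRNA database release and treatment of ambiguous reads are not given in the sources used here. Such choices decide which reads with end variants count as miR-210-3p.

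Testing covered the 633 miRNAs that reached 10 counts in all. It used the quasi-likelihood test of edgeR 4.0.16 under R 4.3.3 with TMM factors and no covariate, and p-values were adjusted over all of them. Standard errors came from the fold change and the F statistic. The filter was applied again when a library was left out. The fit was also run on simulated data, and no result given here rests on that run. Alternatives used limma 3.58.1 and DESeq2 1.42.0, and figures used Python 3.11.15. The labels number the libraries as replicates without saying that each is 1 mouse. The p-values therefore judge the group difference against the spread between these libraries, which may be technical.

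The member, lists and tests were chosen with earlier results of these data known. The rule for single miRNAs took miR-210-3p, the 5 most like it and the 3 above and 3 below in mean level. At most 2 of each are printed, by accession, since the files give no names. For the same reason 3 planned comparisons (hypoxia-linked miRNAs, reference miRNAs, and the 2 arms of the hairpin) were not run. The ratio to 238 common miRNAs, the rank comparison and the fit without control 1 and control 2 were added after seeing the data.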

Additional observations from a re-analysis of the deposited data

How the results depend on the processing

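Across the 12 planned settings that kept all 6 libraries, the log2 fold change of miR-210-3p lay between 0.85 (upper-quartile factors, where the median of all miRNAs tested was -0.52) and 1.80 (replicate number as a block). With each library left out in turn it lay between 0.79, without control 1, and 2.27, without control 3. It was positive in all 19 alternatives, and adjusted p-values ran from 0.116 to 0.975, so that the call did not change in any of them. limma voom gave 1.75, with an adjusted p-value of 0.467. A minimum of 10 counts in each library gives no value, because miR-210-3p had 7 counts in control 1.

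Replicate numbers recur in both groups. Taken as deviations from the group mean, libraries 1, 2 and 3 of the 2 groups correlated at 0.35, -0.12 and 0.02. Libraries with unlike numbers were not compared in this way, so these values cannot tell whether the numbers mark pairs. With the replicate block the log2 fold change was 1.80 (adjusted p = 0.831, edgeR), and 3 miRNAs in place of 16 had an unadjusted p-value under 0.05.

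When single libraries were left out, the rank difference lay between -90.5 and -12.5 and the log2 ratio to common miRNAs between 0.60 and 2.81. Of the 5 miRNAs most like miR-210-3p, Spearman correlation kept 1 and library totals kept 3, and leaving out a library kept 0 to 5. The cause was not tested. At 7 counts in control 1, counting error alone allows 2.06 to 10.6 CPM.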

Other observations

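Within the CIH group, miR-210-3p was level in CIH 1 and CIH 2, at 179.9 and 170.7 TMM-normalized CPM, and lower in CIH 3, at 82.4 CPM. From CIH 2 to CIH 3 it differed by -1.04 on the log2 scale, and 387 of 394 other miRNAs (mean level of 10 CPM or more) had a higher difference, although these libraries correlated at 0.972. In absolute size, 23 of the 394 (5.84%) differed more, the smallest such share among all pairs of libraries. From CIH 1 to CIH 3 the difference was -1.11, and 349 of the 394 had a higher one. Here 69 (17.5%) differed more in absolute size. CIH 3 had 636963 counts, the fewest of the 6 libraries. By library total, the 95% interval of miR-210-3p in CIH 3 (94.0 to 149.3 CPM) did not overlap that of CIH 2 (182.1 to 250.4 CPM). The interval of CIH 1 on that scale (124.0 to 161.8 CPM) overlapped that of CIH 3 but not that of CIH 2. The likeness of CIH 1 and CIH 2 therefore depended on the scaling.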
